A study of Mus musculus with 6 samples.

Results

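The genes described here encode the proteins of the mitochondrial ribosome. They were taken as the rows of the authors' deposited count table whose symbol begins with Mrpl or Mrps and a digit, leaving out pseudogenes, which gave 77 of 13935 listed genes. RNA was measured in 6 libraries of cells from mouse bone marrow, each labelled with its own mouse. By their cell type label these are hematopoietic stem and progenitor cells. The series title names long-term hematopoietic stem cells (LT-HSCs), which sustain blood formation through life. The 3 wild-type libraries are replicates 1 to 3. The 3 libraries labelled knockout are replicates 4 to 6, from mice with a conditional deletion of Mel18 in the blood system. Mel18 is the product of Pcgf2 and a subunit of polycomb repressive complex 1, which represses genes by modifying chromatin. The authors' deposited table heads its comparison with Cre+ against Cre-, so an effect of the Cre recombinase and that of the genotype cannot be told apart. The Cre driver, the deleted exons, the marker gate, and the age and sex of the mice are not stated in the labels.

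The mitochondrial ribosome translates the few mRNAs of the mitochondrial genome, which encode core subunits of the respiratory chain and ATP synthase. Its rRNAs are made in the mitochondrion, while all of its proteins are encoded in the nucleus, made in the cytosol and imported. Some of these proteins have homologs in bacterial ribosomes and others are found only in mitochondria. Hematopoietic stem cells are known for low mitochondrial respiration and a low rate of protein synthesis.

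Transcription of these genes is known to respond to NRF1, to the ETS-family factor GABP and to YY1, so promoters are shown first. They belong to the highest 2 and the lowest 2 log2 fold changes among the 6 members whose CPM did not overlap between the groups and that are in the sequence table. Each sequence runs 5′ to 3′ along the gene's strand, from 250 bases before to 50 bases after the RefSeq start (build GRCm38.p6), with the start at base 251. Capitals mark matches on either strand to GCGCNTGCG (NRF1) and CCGGAAG (ETS). Mrpl52 lies at chr14:54426659-54426958 (plus strand), Mrpl14 at chr17:45686099-45686398 (plus), Mrpl17 at chr7:105811038-105811337 (minus) and Mrpl27 at chr11:94653541-94653840 (plus).
Mrpl52: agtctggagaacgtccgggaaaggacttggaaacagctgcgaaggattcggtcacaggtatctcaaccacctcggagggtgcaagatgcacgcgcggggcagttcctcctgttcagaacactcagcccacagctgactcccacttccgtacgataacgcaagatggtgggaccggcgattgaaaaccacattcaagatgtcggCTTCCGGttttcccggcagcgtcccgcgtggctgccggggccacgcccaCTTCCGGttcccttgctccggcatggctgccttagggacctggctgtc
Mrpl14: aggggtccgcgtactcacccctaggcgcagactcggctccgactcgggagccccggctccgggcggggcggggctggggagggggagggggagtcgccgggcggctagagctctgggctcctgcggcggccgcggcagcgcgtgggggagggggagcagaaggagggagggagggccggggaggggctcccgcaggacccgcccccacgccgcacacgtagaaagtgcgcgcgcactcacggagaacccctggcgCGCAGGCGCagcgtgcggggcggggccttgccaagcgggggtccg
Mrpl17: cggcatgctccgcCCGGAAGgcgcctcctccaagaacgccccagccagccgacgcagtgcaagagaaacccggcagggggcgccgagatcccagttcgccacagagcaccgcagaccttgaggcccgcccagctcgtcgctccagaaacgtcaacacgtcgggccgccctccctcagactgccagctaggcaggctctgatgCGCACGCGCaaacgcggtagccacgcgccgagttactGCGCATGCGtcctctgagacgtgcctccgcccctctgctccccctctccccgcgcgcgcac
Mrpl27: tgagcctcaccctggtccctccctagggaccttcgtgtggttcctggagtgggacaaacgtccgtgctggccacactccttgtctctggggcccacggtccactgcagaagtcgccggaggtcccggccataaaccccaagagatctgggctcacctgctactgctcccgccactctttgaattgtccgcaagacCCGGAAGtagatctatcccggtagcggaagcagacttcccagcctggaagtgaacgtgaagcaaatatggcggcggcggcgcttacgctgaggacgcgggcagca
The Mrpl52 promoter holds 2 ETS matches, at bases 204 to 210 and 253 to 259, on either side of the start, and no NRF1 match. That of Mrpl14 holds 1 NRF1 match just past the start, at bases 256 to 264. The Mrpl17 promoter holds 2 NRF1 matches, at bases 203 to 211 and 240 to 248, and 1 ETS match at bases 14 to 20. Mrpl27 has 1 ETS match at bases 196 to 202.

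Among the 68 members with a promoter in the RefSeq table, 18 held the NRF1 motif (26.5%, against 13.6% of 10552 promoters of listed genes) and 24 the ETS motif (35.3% against 17.8%). The YY1 motif AAGATGGCG was found in 8 (11.8% against 3.1%). The E-box CACGTG, read by MYC and related factors, was found in 5 (7.35% against 10.1%). At least 1 of the 4 motifs was present in 43 member promoters (63.2% against 37.3%), and 9 held at least 2 of NRF1, ETS and YY1 (13.2% against 3.82%). The median GC content was 58.3% in the members and 60.7% in all of these promoters. Both strands were searched. For 63 of the 68 members the RefSeq start lay within 100 bases of the deposited start of the gene. Mrps23, counted for ETS, was 10282 bases off, and Mrps21, counted for NRF1 and ETS, 895 bases. ETS and YY1 matches can share the letters AAG where they adjoin, and a match describes these letters only.

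Total counts ran from 26469336 to 37180701 per library, and members took 0.437% to 0.796% of them. The lowest count of any member in any library was 364 (Mrps22). Pcgf2, the targeted gene, was counted 43, 68 and 54 times in wild-type replicates 1 to 3 and 72, 72 and 107 times in replicates 4 to 6, and so was no lower in the libraries labelled knockout (log2 fold change 0.30, SE 1.14, edgeR adjusted p = 0.952). Whole-gene counts cannot separate reads of the deleted exons from the rest, so all directions below are between libraries by their labels. Replicate 6 stood apart, scoring 167 on the leading principal component (log2 CPM, where CPM divides counts by the scaled library total) against -71.6 to 7.75 for the other 5. The number in its label is 37, while those of the others run from 6 to 10. In wild-type replicates 1 and 2 and in replicate 4, Xist and the Y-linked genes Ddx3y, Eif2s3y, Kdm5d and Uty each had at least 74 counts, although the labels give 1 mouse a library. Wild-type replicate 3 and replicate 6 had 2136 and 1872 counts of Xist and at most 22 of any of these Y-linked genes. Results are therefore also given without replicate 6.

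All 77 members passed the filter on low counts, and none was called higher or lower between the genotypes. Genotype was tested with the quasi-likelihood method of edgeR, with p-values adjusted by Benjamini and Hochberg's method over 12603 genes, and a gene was called where its adjusted p was below 0.05. This called 0.143% of the genes tested. The lowest adjusted p of a member in this edgeR test was 0.363, for Mrpl52. At an unadjusted p below 0.05, 2 members were higher (Mrpl52 and Mrpl14), with 5.36% of all genes, and 0 were lower, with 6.51% of all genes. DESeq2 and limma-voom also called 0 members, and at an unadjusted p below 0.05 they had 4 and 3 members higher, with 6.98% and 5.66% of all genes.

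Most members were nonetheless fitted slightly higher in the libraries labelled knockout. The fit placed 62 higher and 15 lower, with a median log2 fold change of 0.23 and quartiles of 0.06 and 0.46. For all tested genes the median was -0.01 and 49.6% were higher. Members are short genes, with a median exon length of 1053 bases against 2813 for all tested genes. The 4807 other genes between 610 and 2426 bases, the 10th and 90th percentiles of the members, had a median of 0.18 and 62.3% were higher. The 1160 of these that also matched the members' levels (46.9 to 113 CPM) had a median of 0.16 and 64.2% were higher. Both sets were longer than the members, with median exon lengths of 1636 and 1645 bases. The 2007 other genes between the members' length quartiles, 780 and 1590 bases, came closer, with a median length of 1229 bases. Their median log2 fold change was 0.28 and 69.4% were higher, against 0.23 and 80.5% for the members. When each library's trend on exon length was removed, 37 of the 77 members were fitted higher, with a median of -0.01. Without replicate 6 the split was 44 higher with a median of 0.05, and without wild-type replicate 3 it was 47 higher with a median of 0.07. Without wild-type replicate 1 the median was 0.38, and without replicate 4 it was 0.38. Of the 24 members named by rule, 16 had the same sign without replicate 6 and 17 without wild-type replicate 3.

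**Figure D1:**
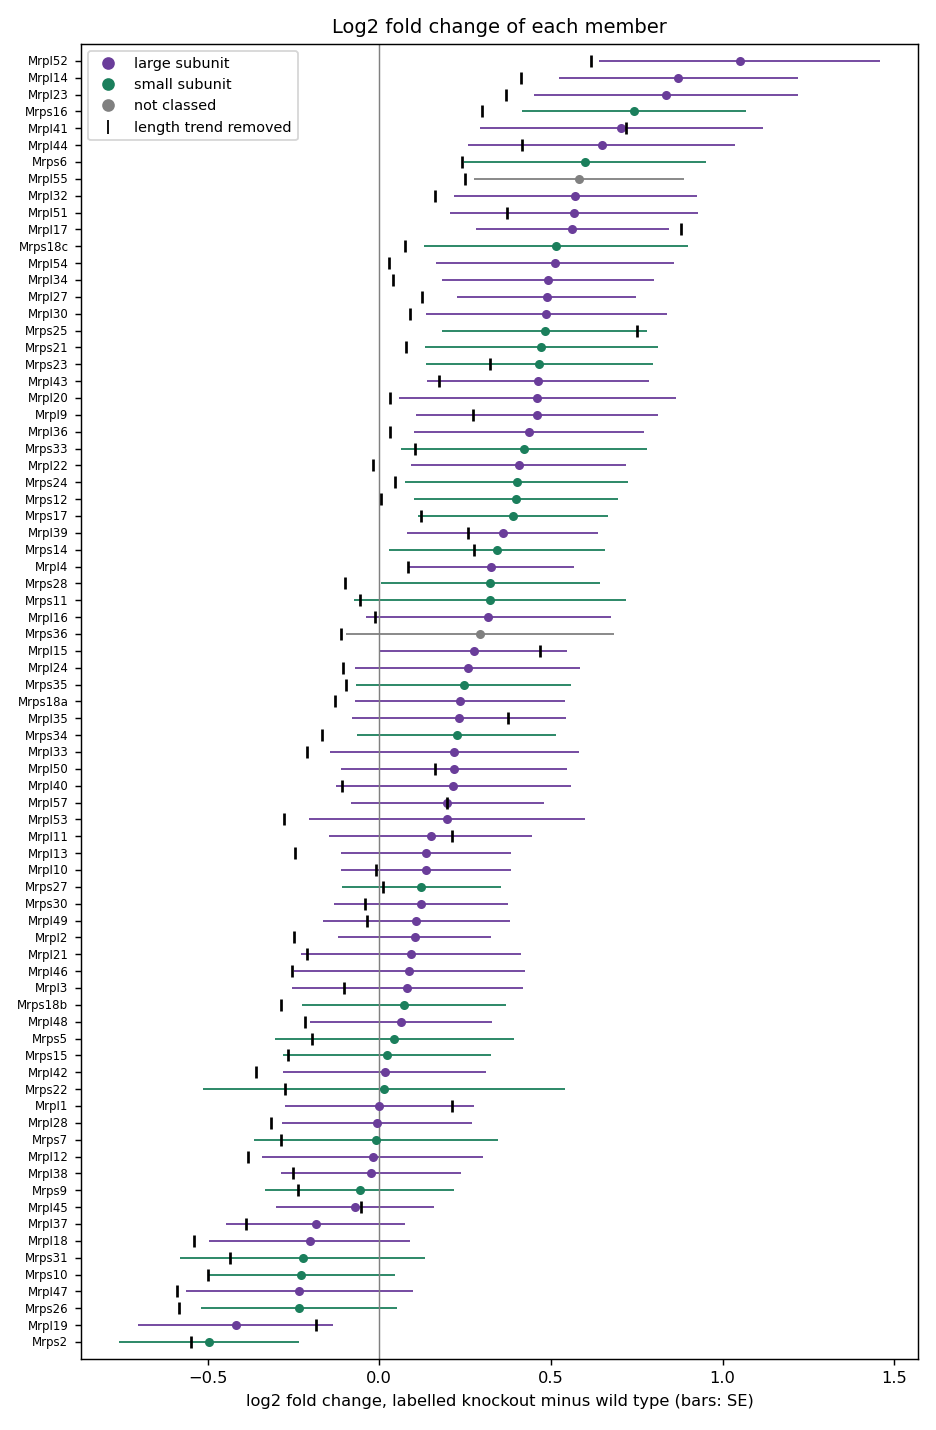
Log2 fold change of each of the 77 members, libraries labelled knockout minus wild type, ordered by size, with bars of 1 SE and a tick for the value after each library's length trend was removed. The fit places 62 members to the right of 0, while the ticks lie to both sides, 37 of them above 0.

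The members varied little around their median. The SD of their log2 fold changes was 0.30, against 1.23 in genes of like length and 0.57 in genes of like length and level. Their SEs had a median of 0.31, and 76 of 77 were below 0.5. The interval of plus or minus 2 SE excluded a log2 fold change of 1 for 47 members and of -1 for 75 members. It is a fixed multiple of the SE and not a confidence interval of known coverage.

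The plot of the members by library shows which libraries carried the fitted difference. Each value is a gene's log2 CPM minus its wild-type mean. In wild-type replicates 1, 2 and 3 the median over members was 0.25, 0.15 and -0.39. In replicates 4, 5 and 6 it was 0.09, 0.09 and 0.64. Replicates 4 and 5 thus lay inside the wild-type range, and replicate 6 lay above it. Genes of like length had medians of 0.16, 0.07 and -0.20 in the wild-type libraries and 0.12, 0.12 and 0.32 in those labelled knockout. Wild-type replicate 3 was the lowest and replicate 6 the highest in both sets of genes.

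**Figure D2:**
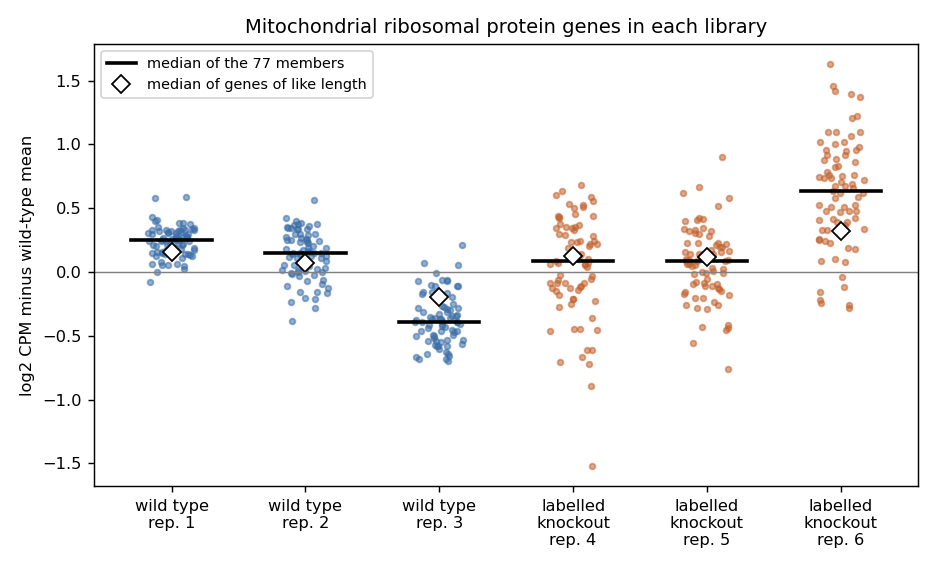
Log2 CPM of each member minus its wild-type mean, in each library, with the median of the 77 members (bar) and of genes of like length (diamond). The member median is lowest in wild-type replicate 3 (-0.39) and highest in replicate 6 of the libraries labelled knockout (0.64).

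Summed over all members, the level was 6530, 6065 and 4264 CPM in wild-type replicates 1 to 3 and 5700, 5629 and 8388 CPM in replicates 4 to 6. The groups overlap, with mean sums of 5620 ± 1197 and 6572 ± 1573 CPM (SD over 3 libraries each). Wild-type replicate 3 was the lowest of the 6 libraries for 59 members (76.6%, against 45.0% of genes of like length and level). Replicate 6 was the highest for 61 members (79.2% against 45.6%). Replicate 4 lay within the wild-type range for 46 of the 77 members, replicate 5 for 56 and replicate 6 for 11. Among the 1160 genes of like length and level these counts were 484, 549 and 302. The same 2 libraries stood apart for other short transcripts: the median of cytosolic ribosomal protein genes was -0.51 in wild-type replicate 3 and 1.34 in replicate 6. They were also the libraries in which the deviation of a gene ran most with its length over all tested genes, with Spearman's rho of 0.44 in wild-type replicate 3 and -0.31 in replicate 6, against -0.10 to 0.10 in the other 4. Genes share the libraries and are not replicates, and the part of library make-up in the members' values was not tested.

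The fitted values were alike in the large and the small subunit. The large subunit had 40 of 49 members fitted higher (median 0.22) and the small subunit 20 of 26 (median 0.28), and 0 were called in either. With the length trend removed these medians were -0.01 and -0.08. Members with a homolog in bacterial ribosomes had 35 of 45 higher (median 0.32), and those found only in mitochondria 25 of 30 (median 0.21). Mrps18a and Mrps18b were counted with the latter, although they, like Mrps18c, are related to a bacterial protein. Mrpl55 and Mrps36 were not classed. The summed level per kilobase of large-subunit genes was 2.25, 2.20 and 2.14 times that of small-subunit genes in the wild-type libraries and 2.20, 2.12 and 2.29 times in those labelled knockout, so the ratio overlapped between the groups. These are sums over 49 and 26 genes, so the ratio includes the difference in gene number. The median level of a gene was 70.1 CPM per kilobase in the large and 62.0 in the small subunit.

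Levels of the members were high for their length. Genes of like length had a median of 25.4 CPM per kilobase of exon, and the members one of 67.6. Their CPM per kilobase of exon, averaged over the 6 libraries, had a median percentile of 86.4 among tested genes, and 76 of 77 lay in the upper part of the ranking, above its midpoint. The range ran from 10.4 (Mrps25) to 261 (Mrpl42) CPM per kilobase, 25.1-fold. The members with the highest levels were all of the large subunit: Mrpl42 at 261, Mrpl33 at 202, Mrpl28 at 190, Mrpl18 at 174 and Mrpl12 at 163 CPM per kilobase. Exons of Mrpl33, Mrpl12 and Mrpl18 share 38.0% (same strand, Gm43809), 21.1% (opposite strand, Gm16755) and 12.9% (opposite strand, Tcp1) of their bases with another gene. The library kit does not mark strand, so reads from such stretches cannot be assigned to a gene with certainty. Across members the log2 fold change ran weakly with level per kilobase (r = 0.20, rho = 0.20, n = 77 genes that share libraries).

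The groups did not overlap for 6 members, all with the libraries labelled knockout above (7.79%, against 10.1% of all tested genes and 15.2% of genes of like length). For 0 members were they below (against 11.3% of all tested genes and 7.91% of genes of like length). None of the 6 passed the edgeR test.

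Mrpl52, a large-subunit protein found only in mitochondria (mm10 chr14:54426909-54429750, plus strand, 412 exon bases), had 29.8, 41.8 and 18.03 CPM in wild-type replicates 1 to 3 and 45.4, 52.7 and 87.5 CPM in replicates 4 to 6. The lowest library labelled knockout lay just above the highest wild-type library. The log2 fold change was 1.05 (SE 0.41, edgeR adjusted p = 0.363), and it was 0.71 without replicate 6 and 0.62 with the length trend removed. Mrpl14, homologous to a bacterial large-subunit protein at the face between the subunits (chr17:45686372-45698495, plus), had 47.4, 53.7 and 30.1 CPM in the wild-type libraries and 64.6, 63.4 and 112 CPM in those labelled knockout. Wild-type replicate 3 was the lowest and replicate 6 the highest, as for Mrpl52. Its log2 fold change was 0.87 (SE 0.35, edgeR adjusted p = 0.375), 0.55 without replicate 6 and 0.41 with the length trend removed.

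Mrps16, a small-subunit protein with a bacterial homolog that in humans is linked to a respiratory chain deficiency (chr14:20391231-20393555, minus), had 66.0, 67.8 and 37.7 CPM in wild-type replicates 1 to 3 and 80.0, 79.3 and 127 CPM in replicates 4 to 6. Replicates 4 and 5 were close to each other, and replicate 6 stood well above them. The log2 fold change was 0.74 (SE 0.33, edgeR adjusted p = 0.425), 0.48 without replicate 6 and 0.30 with the length trend removed. Mrpl55 (chr11:59202486-59206135, plus) had 45.8, 47.6 and 30.6 CPM in the wild-type libraries and 54.5, 54.3 and 76.7 CPM in those labelled knockout, again with wild-type replicate 3 lowest and replicate 6 highest. Its log2 fold change was 0.58 (SE 0.31, edgeR adjusted p = 0.494), 0.40 without replicate 6 and 0.25 with the length trend removed.

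Mrpl17 has a bacterial homolog near the exit of the large subunit's peptide tunnel, and with 6712 exon bases it is the longest of the members (chr7:105803782-105811087, minus). It had 123, 136 and 80.5 CPM in the wild-type libraries and 141, 147 and 214 CPM in those labelled knockout. Wild-type replicate 3 was again the lowest and replicate 6 the highest. The log2 fold change was 0.56 (SE 0.28, edgeR adjusted p = 0.479), 0.35 without replicate 6 and 0.88 with the length trend removed, the highest of all members under that setting. Mrpl27, whose bacterial homolog reaches towards the peptidyl transferase centre (chr11:94653791-94660087, plus), had 76.5, 64.0 and 47.3 CPM in the wild-type libraries and 88.4, 94.3 and 80.6 CPM in those labelled knockout. Among the 6 genes it alone had its highest value in replicate 5 and not in replicate 6. Its log2 fold change was 0.49 (SE 0.26, edgeR adjusted p = 0.504), 0.55 without replicate 6 and 0.13 with the length trend removed.

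**Figure D3:**
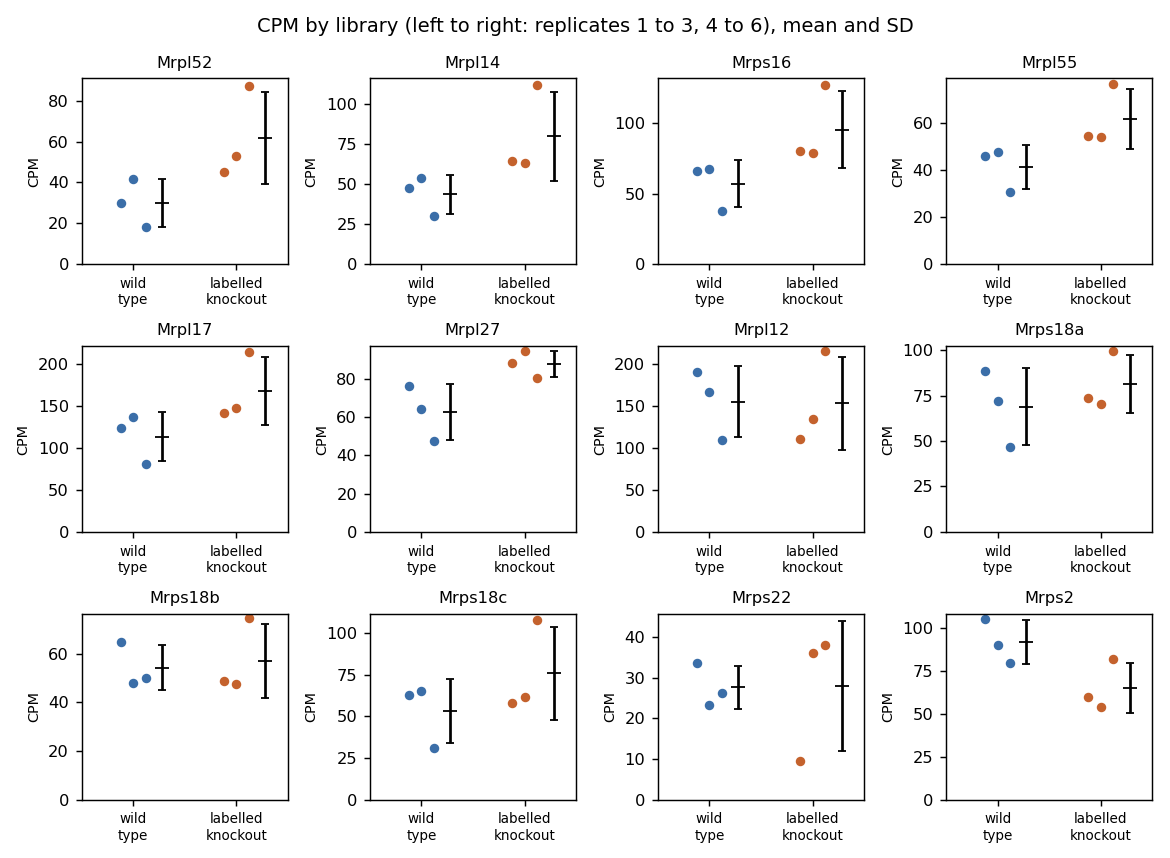
CPM of 12 members in each library, with the mean and SD of each group of 3 beside the points and every axis starting at 0. The groups separate for Mrpl52, Mrpl14, Mrps16, Mrpl55, Mrpl17 and Mrpl27 and overlap for the other 6 genes.

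The proteins of the stalk, which recruits translation factors to the large subunit, had groups that overlapped. Mrpl12, the stalk protein itself, which in humans also binds the mitochondrial RNA polymerase, had 190, 167 and 109 CPM in wild-type replicates 1 to 3 and 110, 134 and 215 CPM in replicates 4 to 6. The groups overlapped over nearly their whole range, and the log2 fold change was -0.02 (SE 0.32), or -0.35 without replicate 6. Mrpl10 and Mrpl11, which anchor the stalk, had log2 fold changes of 0.14 (SE 0.25) and 0.15 (SE 0.30), both with overlapping groups, or -0.01 and 0.03 without replicate 6. Of the other members of highest level, Mrpl42 had a log2 fold change of 0.02, Mrpl33 of 0.22, Mrpl28 of -0.01 and Mrpl18 of -0.20. Without replicate 6 these were -0.08, -0.08, -0.19 and -0.41. The lowest adjusted p of these 7 genes was 0.852, for Mrpl18 (edgeR).

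Mrpl45, which tethers the ribosome to the inner membrane beside the peptide exit, had a log2 fold change of -0.07 (SE 0.23), or 0.02 without replicate 6. Mrpl44, a protein with an RNase III fold whose human variants cause cardiomyopathy, had 76.0, 72.2 and 50.4 CPM in the wild-type libraries and 69.3, 72.7 and 169 CPM in those labelled knockout. Replicates 4 and 5 lay inside the wild-type range and replicate 6 far above it, and the log2 fold change of 0.65 (SE 0.39) was 0.10 without replicate 6. Mrpl41 showed the same arrangement, with 60.0, 50.8 and 31.6 CPM against 58.6, 50.7 and 123 CPM. Its log2 fold change was 0.70 (SE 0.41), or 0.20 without replicate 6. Mrps30, which sits in the large subunit despite its name, had a log2 fold change of 0.12 (SE 0.25), or -0.05 without replicate 6.

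Among the small-subunit genes, Mrps12, the homolog of the bacterial decoding-centre protein S12, had 66.0, 77.2 and 42.2 CPM in the wild-type libraries and 88.0, 66.1 and 90.1 CPM in those labelled knockout. The groups overlapped, with a log2 fold change of 0.40 (SE 0.30). Mrps34, linked in humans to Leigh syndrome, had a log2 fold change of 0.23 (SE 0.29), or -0.03 without replicate 6, and 61.9% of its exon bases lie under Mapk8ip3 on the other strand. Mrps22, whose human variants cause combined respiratory chain deficiency, had 33.6, 23.2 and 26.1 CPM in the wild-type libraries and 9.49, 36.1 and 38.1 CPM in those labelled knockout. Replicate 4 was the lowest library by far, replicates 5 and 6 the highest, and the SE of 0.53 around a log2 fold change of 0.01 was the widest of all members. Without replicate 6 the log2 fold change was -0.28. Mrps36, now known mainly as a subunit of the 2-oxoglutarate dehydrogenase complex, had a log2 fold change of 0.29 (SE 0.39) and has 3 named pseudogenes.

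The Mrps18 genes are 3 paralogs of a single bacterial small-subunit protein. Mrps18a, placed in the large subunit by structures, had 88.5, 71.9 and 46.5 CPM in wild-type replicates 1 to 3 and 73.7, 70.3 and 99.5 CPM in replicates 4 to 6. Mrps18b had 64.8, 47.9 and 50.2 CPM against 48.9, 47.6 and 74.6 CPM. Mrps18c had 62.9, 65.4 and 30.9 CPM against 57.8, 61.9 and 108 CPM. All 3 overlapped between the groups with replicate 6 highest, and their log2 fold changes were 0.23 (SE 0.30), 0.07 (SE 0.30) and 0.51 (SE 0.38). Without replicate 6 they were 0.06, -0.17 and 0.17. Per kilobase the order of levels was Mrps18c at 128, Mrps18a at 86.9 and Mrps18b at 52.9 CPM per kilobase. Mrps18b shares 60.0% of its exon bases with Gm16279 on the opposite strand, and Mrps18c 32.7% with Gm43511 on the same strand.

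Mrps2 and Mrpl19 had the lowest fold changes, and both were picked with these values known. Mrps2, a small-subunit protein with a bacterial homolog, had 105, 90.2 and 79.5 CPM in the wild-type libraries and 59.7, 53.7 and 81.6 CPM in those labelled knockout. Only replicate 6 reached into the wild-type range, and the log2 fold change was -0.50 (SE 0.26, edgeR adjusted p = 0.496), or -0.69 without replicate 6. Mrpl19 had a log2 fold change of -0.42 (SE 0.28), or -0.52 without replicate 6, and 39.2% of its exon bases lie under Gcfc2 on the opposite strand. With the length trend removed, 4 members were lower at an unadjusted p below 0.05 (Mrps2, Mrps10, Mrps26 and Mrpl18) and 0 were higher. Of all tested genes 6.7% were lower and 6.2% higher by this rule.

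From 500 bases on, the median fitted change of other genes fell with exon length. Below 500 bases the 3 members had a median of 0.47 and the 166 other genes one of 0.15. Members of 500 to 750 bases were all fitted higher, 15 of 15 with a median of 0.49. The 338 other genes of that length had a median of 0.44, and 74.9% were higher. Without replicate 6 the medians in this class were 0.20 in members and 0.26 in other genes. From 750 to 1000 bases the medians were 0.14 in 13 members and 0.43 in other genes, and from 1000 to 1500 bases 0.10 in 23 members and 0.22 in other genes. Between 1500 and 2000 bases both were 0.14. The 12 longer members had class medians of 0.17 to 0.48, where other genes had 0.00 to -0.24, with 3 to 6 members in a class. Across the 77 members the log2 fold change ran with log2 exon length at r = -0.30 and rho = -0.33, and across all tested genes at r = -0.12 and rho = -0.25, as descriptions over genes that share libraries.

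**Figure D4:**
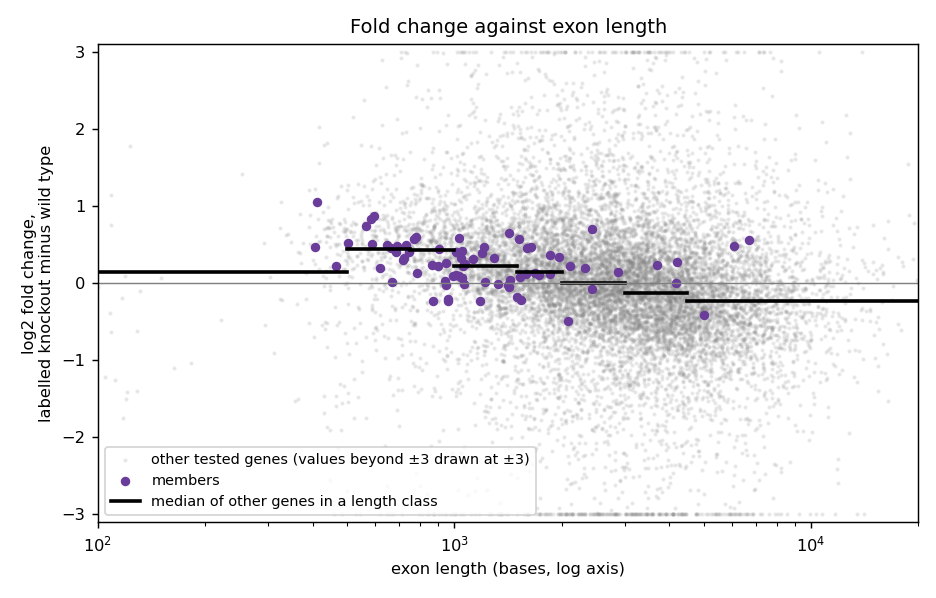
Log2 fold change, libraries labelled knockout minus wild type, against exon length in bases on a log axis, for the 77 members and all other tested genes, with the median of other genes in each length class (values beyond plus or minus 3 drawn at the edge). The median of other genes falls from 0.44 at 500 to 750 bases to -0.24 from 4500 bases on.

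The rest of the pathway showed no call either. Of 5 mitoribosome subunits under other names, 4 were fitted higher (median 0.34). The exception was Ptcd3, a pentatricopeptide protein of the small subunit, with 139 ± 6.03 and 87.7 ± 20.6 CPM. Its log2 fold change was -0.66 (SE 0.24, edgeR adjusted p = 0.314), or -0.56 without replicate 6. It alone of the 5 had groups that did not overlap (20%). Of all tested genes 11.3% had the libraries labelled knockout below without overlap. Chchd1 of the small subunit and Gadd45gip1 of the large subunit had log2 fold changes of 0.62 (SE 0.39) and 0.34 (SE 0.34), or 0.23 and 0.05 without replicate 6. Ict1, a release factor built into the large subunit and now named Mrpl58, had 0.14 (SE 0.32), or 0.08 without replicate 6.

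Of 27 tested assembly factors 15 were fitted higher (median 0.10). The groups did not overlap for 4 with the libraries labelled knockout above (14.8%) and for 1 with them below (3.70%). Of all tested genes these shares were 10.1% and 11.3%. Wbscr16, also named Rcc1l, had means of 85.8 ± 6.80 and 58.2 ± 4.56 CPM, without overlap (log2 fold change -0.56, SE 0.23, or -0.62 without replicate 6). Nsun4, a methyltransferase of mitochondrial rRNA, averaged 38.0 ± 4.71 and 63.2 ± 20.1 CPM, also without overlap (0.73, SE 0.32, or 0.47 without replicate 6). Ybey, an endoribonuclease of rRNA maturation, was counted 202, 82 and 338 times in the wild-type libraries and 417, 447 and 1365 times in those labelled knockout. The groups of Ybey did not overlap in CPM either, and its log2 fold change was 1.66 (SE 0.73), or 0.70 without replicate 6. The edgeR adjusted p of these 3 genes was 0.382, 0.420 and 0.425.

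Of 13 mitochondrial translation factors 7 were fitted higher (median 0.00). The elongation factors Guf1 and Gfm1 had log2 fold changes of -0.91 (SE 0.41) and -0.52 (SE 0.29), or -0.97 and -0.70 without replicate 6. Taco1, which activates translation of a cytochrome oxidase subunit, had 0.66 (SE 0.57), or 0.16 without replicate 6. All 3 overlapped between the groups. Of 20 genes of mitochondrial transcription and RNA processing 10 were fitted higher (median 0.00). The groups did not overlap for 1 of these 20 with the libraries labelled knockout above (5%, against 10.1% of all tested genes) and for 0 with them below. Hsd17b10, a dehydrogenase that is also a subunit of mitochondrial RNase P, was counted 4540, 3775 and 2839 times in wild-type replicates 1 to 3 and 10225, 9251 and 9717 times in replicates 4 to 6. The groups lay far apart, with replicate 6 between replicates 4 and 5 in counts. Mean levels were 130 ± 35.5 and 271 ± 32.3 CPM, and the log2 fold change was 1.06 (SE 0.26, edgeR adjusted p = 0.172), 0.97 without replicate 6 and 0.72 with the length trend removed. Pnpt1, a mitochondrial RNA-degrading enzyme, had a log2 fold change of -0.51 (SE 0.31), or -0.43 without replicate 6. The transcription elongation factor Tefm had 0.62 (SE 0.39), or 0.25 without replicate 6.

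Beside the genes of other ribosomal and respiratory proteins the members' fitted change was small. Of 80 tested cytosolic ribosomal protein genes 77 were fitted higher with a median of 0.73, and of 79 respiratory chain and ATP synthase genes 72 with a median of 0.41. With the length trend removed these medians were 0.33 and 0.05, and without replicate 6 they were 0.34 and 0.13, against -0.01 and 0.05 for the members. No gene of either list was called. The groups did not overlap, with the libraries labelled knockout above, for 30 of the cytosolic ribosomal protein genes (37.5%) and 5 of the respiratory genes (6.33%), against 10.1% of all tested genes. With those libraries below they did not overlap for 0 and 3 genes, against 11.3% of all tested genes. Genes of like length to the members had 15.2% above and 7.91% below. The median exon lengths of the cytosolic ribosomal and respiratory lists were 717.5 and 727 bases, shorter than the members' 1053. Other genes of 500 to 750 bases had a median log2 fold change of 0.44. The difference between these lists and the members was not tested.

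**Figure D5:**
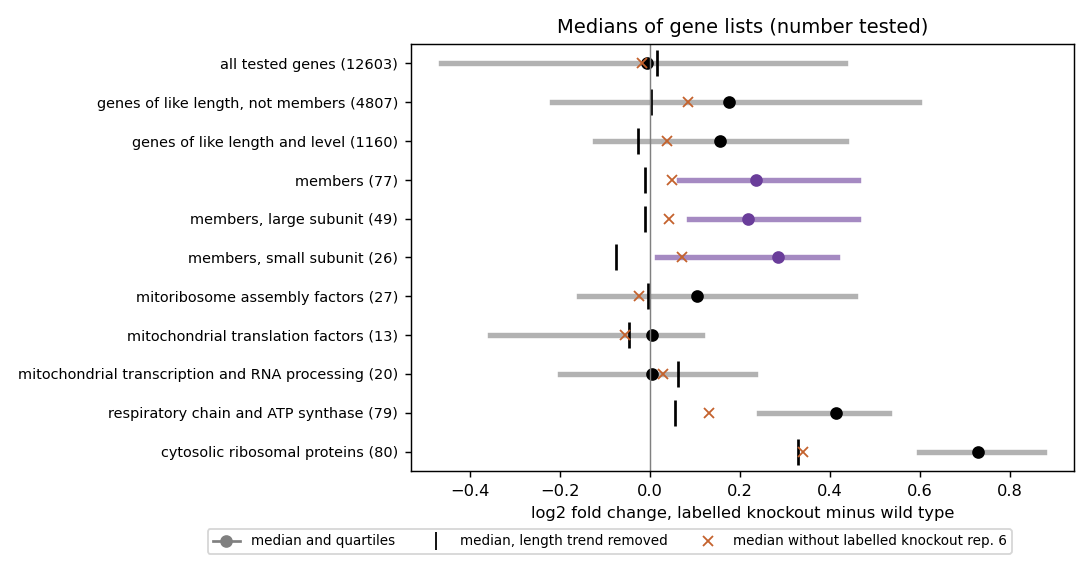
Median log2 fold change of each gene list, libraries labelled knockout minus wild type, with quartiles (bars), the median after removal of each library's length trend (ticks) and the median without replicate 6 (crosses). The members' median of 0.23 is -0.01 after removal of the trend, and that of cytosolic ribosomal proteins goes from 0.73 to 0.33.

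The make-up of the libraries differed by genotype label. Of 13 markers of LT-HSCs 12 were fitted higher in the libraries labelled knockout and 1 was called (Procr), with summed levels of 795 to 1542 CPM in the wild-type libraries and 1850 to 2791 CPM in those labelled knockout. Of 19 tested markers of lineage-primed and multipotent progenitors 16 were lower and 1 was called (Cd48), with sums of 7801 to 15185 and 1788 to 2213 CPM. Much of these sums came from Mpo, with means of 6247 and 156 CPM. The erythroid and megakaryocyte markers did not share the fall. Epor, Klf1 and Pf4 were fitted higher (1.68, 0.62 and 0.62), Gata1 and Itga2b had -0.27 and -0.06, and all of them overlapped between the groups. All 18 markers of mitosis and DNA replication were lower and 1 was called (Ect2), with sums of 5782 to 6901 and 2736 to 3498 CPM. The ranges of these sums did not overlap between the groups, whereas those of the members' sums did. A single level per library cannot tell fewer cells of a type from less RNA per cell, and the part of these markers in the members' values was not tested.

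In the authors' deposited table, which gives a single log2 fold change per gene, the members' median was 0.05 and 51 of 77 were positive. There the 4807 genes of like length also had a median of 0.05, with 2775 positive. All 12603 tested genes had a median of -0.02, with 5919 positive. By the authors' deposited table the members ranged from -0.35 (Mrpl57) to 0.50 (Mrps22), and the lowest of its p-values for a member was 0.267 (Mrpl49). For 29 members its sign was opposite to that of the fit to the deposited counts. Between the authors' deposited table and that fit r was 0.12 and rho 0.21 over the 77 members, against 0.42 and 0.41 over all tested genes, and the steps from the counts to its values are not stated in the labels.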

How the data were processed

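Per the labels' protocols, SMART-Seq v4 chemistry was used for cDNA and Nextera XT for the libraries, which do not mark strand. Per the submitters' processing notes, the tools included STAR 2.5, Trimmomatic 0.40 and edgeR 3.28.1, and the build was mm10. The authors deposited raw counts per gene and library, exon lengths, and their own log2 fold changes and p-values, which are quoted as theirs. A further 6 columns of log2 FPKM per sample in the authors' table were not used.

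Counts of all 13935 genes were fitted in R 4.3.3 with edgeR 4.0.16: filterByExpr (minimum count 10) kept 12603 genes, libraries were scaled by TMM, and genotype was tested with the robust quasi-likelihood test, two-sided, with Benjamini-Hochberg adjustment over all tested genes. An SE is the log2 fold change divided by the root of F. CPM uses TMM-scaled totals, and 3 counts correspond to 0.0807 to 0.113 CPM before that scaling; this covers counting error only. Length trends were removed by a loess curve (span 0.3) per library, used as offsets. Procedures were tested on simulated counts. Promoters come from RefSeq (68 of 77 members matched), and exon overlaps from GENCODE M21 (77 of 77 matched).

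The members and gene lists were chosen with earlier results of these data known. Members were named by a rule: the non-overlapping members with the highest and lowest changes, the 5 with the highest level per kilobase, fixed members with a known role, and for each pathway list the 3 with the smallest p. The alternatives were DESeq2 1.42.0, limma-voom (limma 3.58.1) with and without sample weights, the likelihood ratio test, other scalings, filters and thresholds, length-trend removal and leaving out each library.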

Additional observations from a re-analysis of the deposited data

How the results depend on the processing

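No member was called under any setting run, including an adjusted p below 0.1 in the edgeR test. Of the 77 members, 61 to 67 were fitted higher under the other tests, scalings and filters, except 49 with voom sample weights (median 0.08). Removing each library's length trend left 37 fitted higher, a median of 0.0016 for genes of like length, and 15 of 24 named members with the same sign. Removing it without replicate 6, an alternative chosen after seeing the data, left 30, with a median of -0.10 for the members and -0.0078 for genes of like length; the cause was not tested. Leaving out single libraries gave 44 (without replicate 6) to 68 (without wild-type replicate 1). Over all genes the edgeR quasi-likelihood test called 18, DESeq2 530, the likelihood ratio test 432, voom 0, voom with weights 4, no filter 28, trend removal without replicate 6 30, and leave-outs 0 to 49. No paired analysis was possible because the groups share no replicate numbers. The median SE of 0.31 among members limits what 3 libraries a group can show.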
